A study of Mus musculus with 2 samples.

Results

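Committed T precursors with *Il2ra* were selected from droplet RNA profiles of mouse fetal liver progenitors undergoing T-cell differentiation in vitro. A cell was a member when its unique molecular identifiers (UMIs, tags that count RNA molecules) included at least 2 of *Ptcra*, *Lef1* and *Bcl11b* together, at least 1 of *Il2ra*, and at most 1 of *Lmo2* and *Mef2c* together. The rule found 562 members among 5888 cells, of which 273 of 1788 came from library FL001 and 289 of 4100 from library FL002. Barcodes needed 1500 or more UMIs and 500 or more genes to count as cells, with mitochondrial transcripts making up no more than 10% of the UMIs.

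Both libraries belonged to the same group, named for DL4 and VCAM-1. The cells were wild-type hematopoietic stem and progenitor cells, positive for Sca-1 and cKit, taken at E13.5 from fetal livers of CD1 mice that had been depleted of TER-119-positive cells. They were seeded at 1000 cells per well on plates coated with the Notch ligand DL4 at 10 µg/mL and the adhesion molecule VCAM-1 at 2.32 µg/mL. The study pooled freshly sorted cells with cells from several days of culture, and the days that each library holds were not stated, so the libraries were not compared as conditions.

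In the thymus, Notch signalling moves progenitors through double-negative stages in which genes of the stem cell and myeloid programs are lost and T-lineage genes are gained. *Il2ra*, which encodes CD25, appears while cells can still adopt other fates, and *Bcl11b* marks the commitment that follows. The later double-negative stage is known for *Ptcra*, the invariant partner of the β chain in the pre-T-cell receptor, for *Lef1*, an HMG-box factor, and for recombination of the receptor loci by *Rag1* and *Rag2*. *Lmo2* and *Mef2c* belong to the progenitor program that precedes commitment.

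Library FL001 held 16320118 UMIs and library FL002 held 22651783, with medians of 7722 and 4752.5 UMIs per kept cell. Members were shallower than the cells around them, with medians of 6900 UMIs in FL001 and 4024 in FL002. The libraries had 10 kept barcodes in common, and 0 of these were members. UMIs of both *Xist* and a Y-linked gene, a sign of mixed male and female cells, were found in 3.30% of the members of FL001 and 3.46% of those of FL002. The doublet caller Scrublet marked 1 member in FL001 and 0 in FL002, too few to show that it worked, so no cell was removed on its account. Members made up 15.3% of the kept cells of FL001 (95% exact binomial interval 13.6 to 17.0) and 7.05% of those of FL002 (6.28 to 7.88). FL001 also had more UMIs per cell, and after each cell was thinned to 1500 UMIs the same rule found 2.80% and 2.07%. The intervals of the thinned shares, 2.08 to 3.67 and 1.66 to 2.56, overlapped. They rest on 50 and 85 members, and an overlap does not show that the shares are equal. The part of depth in the difference between the libraries was not tested.

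The values that chose the members are given as a description only. *Lef1* was found in 203 members of FL001 and 115 of FL002, *Ptcra* in 170 and 223, and *Bcl11b* in 151 and 137. UMIs of all 3 commitment genes were present in 25.6% of members in FL001 and 12.5% in FL002, so most members entered the rule through 1 or 2 of the genes. The members of FL001 held a median of 5 UMIs of these genes and those of FL002 a median of 3, with highest values of 20 and 17. At the edge of the rule, 56 and 116 members had exactly 2 UMIs of the commitment genes, and 95 and 266 *Il2ra* cells outside the rule had 1. Only 2 cells in each library were left out for *Lmo2* and *Mef2c* alone. Levels are given in CPM, in which a gene's UMIs in all cells of a class are added and scaled to 1000000 UMIs of that class, with 95% exact Poisson intervals that cover counting error only. *Lef1* stood at 332 CPM in the members of FL001 and 172 CPM in those of FL002, whereas *Ptcra* stood at 245 and 419.8 CPM.

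Of the markers set for these cells, *Itgae* and *Tnfrsf9* took no part in the rule. *Itgae*, the αE integrin chain of CD103, had 45.7 CPM (37.1 to 55.7) in the members of FL001 and 20.5 CPM (upper bound 29.8) in those of FL002. *Il2ra* cells with no UMI of a commitment gene had 4.80 CPM (2.80 to 7.69) and 0.685 CPM (0.187 to 1.75). *Tnfrsf9*, the receptor 4-1BB, had 89.0 CPM (76.8 to 103) and 37.1 CPM (27.5 to 49.1) in members, against 20.1 CPM (15.7 to 25.3) and 7.36 CPM (5.33 to 9.91). Both markers were thus higher in members in each library, without overlap of the intervals, although each was lower in the members of FL002 than in those of FL001. *Itgae* was found in 27.1% of members in FL001 and 9.0% in FL002, and *Tnfrsf9* in 38.1% and 12.8%, so each was undetected in most members. The members were chosen with earlier results of these data known. These markers are therefore a description of the cells and not separate evidence for their name.

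The nearest comparison asks what separated members from *Il2ra* cells in which no commitment gene was detected, 368 cells of FL001 and 1111 of FL002. Because the classes were cut from the cells' own UMIs and each library gives a single value, ratios are described without a test. A gene counted as higher or lower when its log2 ratio, with 10 CPM added to both levels, passed 2-fold the same way in both libraries. Of 2990 genes with at least 50 CPM in either class in each library, 27 were higher in members (0.903% of the genes) and 10 were lower (0.334%), or 1.24% either way. In FL001 alone 49 were higher (1.64%) and 21 lower (0.702%), and in FL002 alone 30 (1%) and 10 (0.334%). The median log2 ratio over all these genes was -0.03 in FL001 and -0.01 in FL002. A gene could enter through 1 class only. *Gal*, *Cdh1*, *Crhbp*, *Bst1*, *Nrp1* and *Bex1* were among those under 50 CPM in the *Il2ra* cells without commitment genes of both libraries. *Mpo*, *Serpina3g*, *Cd48* and *Emilin2* were among those under 50 CPM in the members of both. The directions of such genes were thus in part set by the minimum of 50 CPM. *Il2ra* cells without commitment genes had more UMIs, medians of 9052 and 4650, and when they were drawn to the depth of the members 15 of the 27 genes remained and *Cd3d*, *Thy1*, *Txk* and *Ighm* were among those that did not. At least 3 UMIs of myeloid, megakaryocyte or erythroid markers were found in 34.8% of them in FL001 and 10.9% in FL002, against 2.2% and 0.692% of members, and without those cells 16 of the 27 genes remained. The *Il2ra* cells without commitment genes were also not held to the limit on *Lmo2* and *Mef2c*, which 6.52% and 5.94% of them exceeded. With that limit held, 22 of the 27 higher and 10 of the 10 lower genes remained. When the rule itself was applied to cells thinned to 1500 UMIs, it left 50 members in FL001 and 85 in FL002 and called 26 genes higher, 12 of them among the 27. *Gal*, *Cdh1*, *Crhbp*, *Arpp21*, *Bst1*, *Nrp1*, *Cd3d* and *Thy1* were kept, whereas *Atp8a1*, *Bex1*, *Mzb1*, *Agpat4*, *Fbp1* and *Txk* were not, nor were *Mpo* and *Cd48* among the lower genes.

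**Figure D1:**
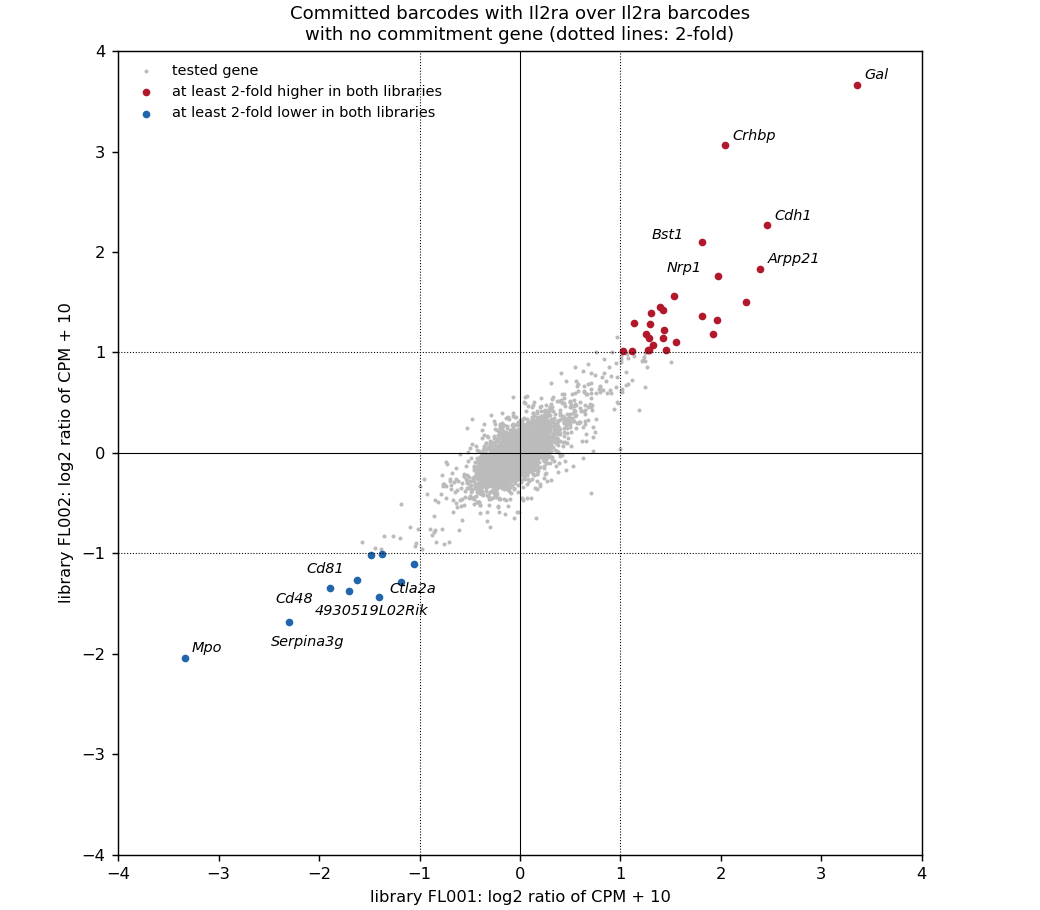
Each point is one of 2990 genes, with its log2 ratio of CPM + 10 in members over *Il2ra* cells without commitment genes in library FL001 (x axis) and library FL002 (y axis). Dotted lines mark 2-fold, and the 27 red and 10 blue genes passed it in both libraries, with *Gal* farthest in the higher direction and *Mpo* in the lower.

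The gene with the highest ratio over *Il2ra* cells without commitment genes was *Gal*, which encodes the neuropeptide galanin. *Gal* had 101 CPM (87.7 to 115) in the members of FL001 and 167 CPM (145 to 190) in those of FL002. In the comparison cells it had 0.847 CPM (0.175 to 2.48) and 3.94 CPM (2.50 to 5.91), from 3 and 23 UMIs. The log2 ratios were 3.35 and 3.66, and the *Gal* of free RNA, measured in barcodes with 1 to 100 UMIs, was 63.9 and 44.5 CPM. Those low-UMI barcodes thus held far more *Gal* than did *Il2ra* cells without commitment genes. Within the members, *Gal* was found in 42 of 273 cells of FL001 and 54 of 289 cells of FL002, and the 5 richest cells held 39.4% and 32.3% of its UMIs.

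*Cdh1*, which encodes E-cadherin, had 192 CPM (173 to 211) in the members of FL001 and 164 CPM (143 to 188) in those of FL002. The comparison cells had 26.6 and 26.2 CPM, and the log2 ratios were 2.46 and 2.27. *Arpp21*, an RNA-binding phosphoprotein gene, had 174 and 212 CPM in members against 25.1 and 52.4 CPM, with log2 ratios of 2.39 and 1.83. Unlike *Gal*, these genes were spread widely: *Cdh1* was found in 64.8% and 38.1% of members and *Arpp21* in 63.7% and 51.6%. After thinning to 1500 UMIs, *Arpp21* was found in 28.6% and 27.0% of members and in 4.35% and 8.37% of the comparison cells. *Bst1*, an ectoenzyme of NAD metabolism known from lymphoid and stromal cells, had 114 and 84.9 CPM in members against 25.4 and 12.2 CPM. *Nrp1*, a co-receptor for semaphorins and VEGF, had 57.8 and 68.2 CPM against 7.34 and 13.0 CPM.

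*Crhbp*, which encodes the binding protein of corticotropin-releasing hormone, had log2 ratios of 2.04 and 3.07. Its levels were 68.5 CPM (57.9 to 80.5) in the members of FL001 and 117 CPM (99 to 137) in those of FL002, against 9.04 and 5.14 CPM. These levels came from few cells. Only 25 members of FL001 and 22 of FL002 had any *Crhbp*, and the 5 richest held 62.6% and 58.4% of its UMIs, with up to 29 and 30 UMIs in a cell. The gene therefore marked a small set of members in each library rather than the class.

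The other leading genes of this comparison lay between 1.32 and 2.25 on the log2 scale. *Txk*, a Tec family kinase of T cells, had 207 and 198.5 CPM in members against 45.8 and 73.4 CPM, and was among the genes lost on matching for depth. *Bex1* had 103 and 59.9 CPM against 13.8 and 14.7 CPM. *Fbp1*, a gluconeogenic enzyme, had 109 and 109 CPM against 23.7 and 36.5 CPM. *Mzb1*, an endoplasmic reticulum chaperone gene first known from B cells, had 138 and 139 CPM against 45.5 and 45.9 CPM. *Atp8a1*, a phospholipid flippase, had 168 and 127 CPM against 51.4 and 36.1 CPM. *Agpat4*, an acyltransferase of phospholipid synthesis, had 51.7 and 84.9 CPM against 13.6 and 24.7 CPM.

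Of the 10 lower genes, *Mpo* was in a list, the neutrophil and monocyte markers, and the other 9 were in none. *Mpo*, the myeloperoxidase of neutrophil granules, had 5.59 CPM (2.89 to 9.77) in the members of FL001 and 15.9 CPM (9.85 to 24.3) in those of FL002, against 148 and 96.5 CPM, and was no longer past 2-fold in both libraries once cells with myeloid or erythroid UMIs were left out, a restriction that uses *Mpo* itself. *Cd48*, a CD2-family adhesion receptor, had 30.8 CPM (23.8 to 39.1) and 46.2 CPM (35.4 to 59.4) against 141 and 133 CPM. *Cd81*, a tetraspanin, had 43.3 and 65.2 CPM against 155 and 171 CPM. The log2 ratios were -1.89 and -1.35 for *Cd48* and -1.63 and -1.27 for *Cd81*.

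*Serpina3g*, a serine protease inhibitor gene with near-identical neighbours, so that its counts are uncertain, had 13.1 and 25.0 CPM in members against 104 and 103 CPM. *Ctla2a*, a cysteine protease inhibitor gene that shares sequence with *Ctla2b*, had 71.8 and 59.1 CPM against 207 and 177 CPM. *Cst7*, the cystatin F of cytotoxic and myeloid cells, had 31.2 and 37.9 CPM against 105 and 87.0 CPM. *Emilin2*, an extracellular matrix gene, had 25.2 and 17.4 CPM against 69.8 and 56.8 CPM, and *4930519L02Rik*, *Lst1* and *Bex6* completed the group.

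Genes of CD3 and pre-T-cell receptor signalling had the highest median ratio among the lists with at least 2 genes at the minimum level. Of 22 genes in the list, 8 reached the minimum level, 2 passed 2-fold in both libraries (*Cd3d* and *Thy1*) beside 0.903% of all 2990 genes, and all 8 were above the comparison cells in both, as were 31.4% of all genes, with a median log2 ratio of 1.02 in FL001 and 0.76 in FL002. Without *Cd3e*, which did not reach the minimum level in both classes, the medians were 0.80 and 0.67. *Cd3d*, a chain of the CD3 complex that carries the receptor's signal, had 648 CPM (614 to 683) in the members of FL001 and 482 CPM (445 to 521) in those of FL002. It had 164 CPM (151 to 178) and 207 CPM (196 to 219) in the comparison cells, for log2 ratios of 1.92 and 1.18, and was not past 2-fold in both libraries when depth was matched. *Thy1*, the surface marker of the T lineage, had 146 and 147 CPM against 53.7 and 54.4 CPM, and it dropped out under both the depth-matched comparison and the comparison without myeloid or erythroid UMIs. *Lck*, the kinase that starts receptor signalling, had 414 and 312 CPM against 167 and 168 CPM, past 2-fold in FL001 only.

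*Cd3g* was the most abundant gene of the list, with 3718 and 3364 CPM in members against 2133 and 2110.0 CPM. After thinning it was found in 97.4% and 96.2% of members and in 72.3% and 75.6% of *Il2ra* cells without commitment genes. Free RNA also held 1880.0 and 1537 CPM of *Cd3g*. *Cd28*, a co-stimulatory receptor, and *Themis*, a thymocyte signalling protein, did not reach the minimum level. *Cd28* had 32.2 CPM (25.0 to 40.7) and 40.2 CPM (30.1 to 52.5) in members against 4.80 and 11.5 CPM. *Themis* had 31.2 CPM (24.2 to 39.7) and 26.5 CPM (18.5 to 36.9) against 3.67 and 3.94 CPM. In contrast, *Fyn* and *Ptprcap* differed little, with *Fyn* at 44.7 and 44.0 CPM in members against 43.8 and 50.5 CPM. *Cd5*, which rises with receptor signalling in thymocytes, was near its floor in members, at 0.466 and 0.758 CPM from 1 UMI in each library. The comparison cells of FL002 had more *Cd5*, 4.79 CPM (3.19 to 6.93) from 28 UMIs, although the interval overlapped that of the members.

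**Figure D2:**
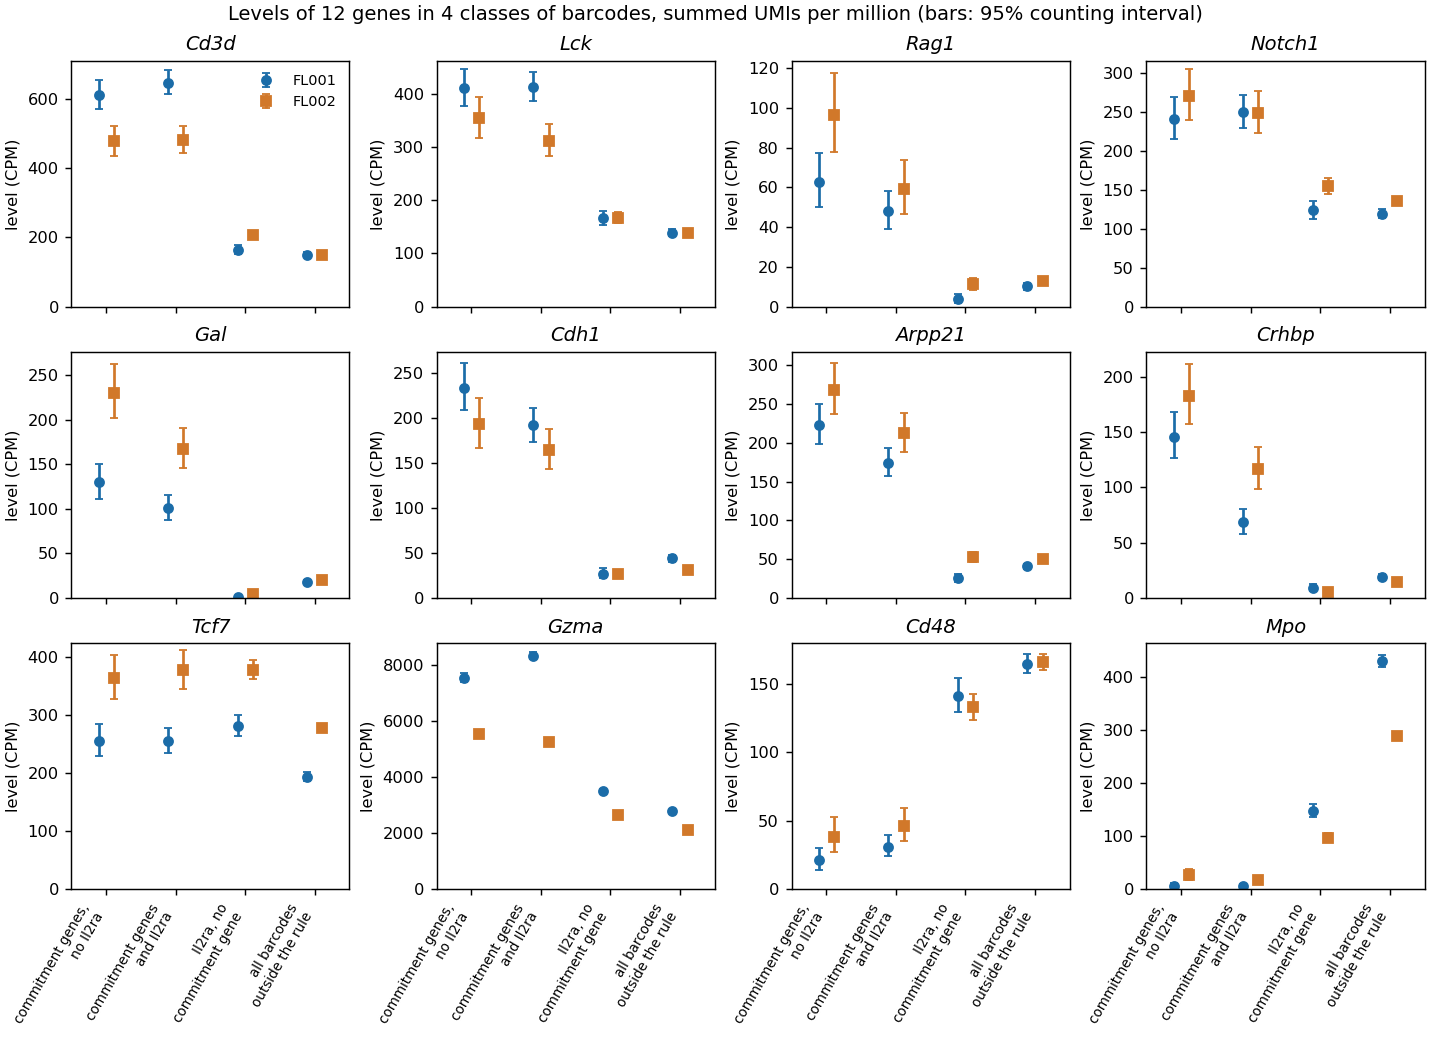
Levels in CPM (y axis, from 0) of 12 genes in 4 classes of cells (x axis), with circles for library FL001, squares for FL002 and bars for the 95% exact Poisson interval. *Cd3d*, *Rag1*, *Gal*, *Cdh1* and *Arpp21* were at high levels in both committed classes, *Tcf7* differed little between the *Il2ra* classes, and *Mpo* and *Cd48* were low in the committed classes.

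The upstream sequences of genes that were high together are shown so that letters bound by TCF and LEF factors, RUNX factors, E proteins and the Notch effector RBPJ can be read in them. The 3 genes shown were chosen after their values were seen. The 250 bases before the start of transcription were taken from RefSeq on GRCm38.p6, which matched 18 of the 27 higher genes. *Cdh1*, *Bst1*, *Mzb1*, *Cd7*, *Thy1*, *H19*, *Chd7*, *Ighm* and *Mpzl2* were not matched. Capitals mark, on either strand, the letters CTTTGA of TCF and LEF factors, TGTGGT of RUNX factors, CAGNTG of E-boxes and TGGGAA of RBPJ. *Ptcra* is given for the rule itself, *Cd3d* for the CD3 genes and *Gal* as the leading gene. The windows lie at chr17:46763713-46763962 on the minus strand for *Ptcra*, at chr9:44981536-44981785 on the plus strand for *Cd3d*, and at chr19:3414545-3414794 on the minus strand for *Gal*.
Ptcra: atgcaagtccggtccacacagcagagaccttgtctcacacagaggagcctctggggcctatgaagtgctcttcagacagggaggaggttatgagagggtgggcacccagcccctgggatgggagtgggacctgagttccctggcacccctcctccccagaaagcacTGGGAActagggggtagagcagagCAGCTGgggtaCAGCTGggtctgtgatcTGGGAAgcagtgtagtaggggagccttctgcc
Cd3d: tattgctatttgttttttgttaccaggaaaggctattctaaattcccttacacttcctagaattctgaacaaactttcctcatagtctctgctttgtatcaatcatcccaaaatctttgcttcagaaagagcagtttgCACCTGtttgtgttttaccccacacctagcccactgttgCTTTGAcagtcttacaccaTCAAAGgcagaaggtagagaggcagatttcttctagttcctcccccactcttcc
Gal: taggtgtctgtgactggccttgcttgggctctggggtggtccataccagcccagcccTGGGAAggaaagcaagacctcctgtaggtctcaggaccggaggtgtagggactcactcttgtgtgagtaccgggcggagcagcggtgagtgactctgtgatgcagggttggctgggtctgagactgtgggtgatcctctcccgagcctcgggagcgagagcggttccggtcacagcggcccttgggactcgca
The *Ptcra* window held 2 copies of the E-box letters, 60 and 49 bases before the start, between 2 copies of the RBPJ letters. The *Cd3d* window held the TCF and LEF letters 73 bases and, on the other strand, 54 bases before the start, and 1 E-box. Among the 18 matched genes, the TCF and LEF letters were found in 16.7% of windows against 14% of 27025 windows of all genes, and the RBPJ letters in 27.8% against 21.5%. The E-box letters were found in 27.8% against 44.5%, and the RUNX letters in 5.6% against 14.2%. A match of letters is a description of the window and not a binding site.

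Both recombinase genes were higher in members, without overlap of the intervals, while the α-chain constant gene was near 0. *Rag1*, a subunit of the recombinase, had 48.0 CPM (39.2 to 58.2) in the members of FL001 and 59.1 CPM (46.7 to 73.8) in those of FL002, against 3.67 CPM (1.96 to 6.28) and 11.1 CPM (8.59 to 14.2) in *Il2ra* cells without commitment genes. *Rag2*, its partner, had 23.3 CPM (17.3 to 30.7) and 18.9 CPM (12.3 to 28.0) against 2.82 and 2.05 CPM. Neither gene reached 50 CPM in both libraries, so neither entered the count of higher genes. *Rag1* was found in 64 members of FL001 and 59 of FL002. *Dntt*, which adds untemplated bases at the joints, had 1 UMI in the members of FL001 and 0 in those of FL002, and *Trac*, the α-chain constant gene, also had 1 and 0. The floor of 3 UMIs was 1.40 CPM in FL001 and 2.27 CPM in FL002.

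Constant genes of the β, γ and δ chains were abundant and less different. Of 10 genes of this list, 6 reached the minimum level, 0 passed 2-fold in both libraries and 5 were above the comparison cells in both, beside 31.4% of all 2990 genes, with median log2 ratios of 0.45 and 0.25. *Trbc2* stood at 1843 and 1800.0 CPM in members against 1734 and 1904 CPM, so its direction differed between the libraries. *Trdc*, of the δ chain, had 182 CPM (165 to 201) and 205 CPM (181 to 231) in members against 82.8 and 125 CPM. *Tcrg-C1* had 770.3 and 567 CPM against 549 and 449 CPM. Counts of *Trbc1*, *Trbc2* and the *Tcrg-C* genes are uncertain because these genes are close copies, and transcripts of constant genes arise without recombination, so these levels do not show rearranged receptors.

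Notch receptors and targets were above the comparison cells in both libraries for each of the 4 genes of 11 that reached the minimum level, although 0 passed 2-fold in both, beside 31.4% and 0.903% of all 2990 genes. The median log2 ratio was 0.72 in FL001 and 0.54 in FL002. *Notch1*, the receptor that drives T-lineage entry, had 251 CPM (230 to 273) in the members of FL001 and 249 CPM (223 to 278) in those of FL002, against 124 CPM (113 to 136) and 155 CPM (145 to 166). *Dtx1*, a Notch target, had 181 and 123 CPM against 92.4 and 76.2 CPM. *Nrarp*, a target that restrains Notch signalling, had 241 and 254 CPM against 191 and 183 CPM. *Hes1*, a repressor induced by Notch, had 132 and 175 CPM against 87.8 and 139 CPM. *Notch3*, a receptor gene of later double-negative cells, had 20.5 and 24.3 CPM against 9.89 and 14.6 CPM.

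Transcription factors of the T lineage differed less than the signalling genes. Of 26 factors, 12 reached the minimum level and 0 passed 2-fold in both libraries, beside 0.903% higher of all 2990 genes. Without *Ikzf2*, which passed through the members, 7 of 11 were above the comparison cells in both libraries and 1 was below, beside 29.9% and 41.7% of 2602 genes at the minimum level in both classes, with median log2 ratios of 0.15 and 0.14. *Tcf7*, which encodes TCF1 and opens the T-lineage program, had 256 CPM (235 to 279) in the members of FL001 and 378 CPM (346 to 413) in those of FL002, against 282 and 379 CPM. *Tcf7* was therefore at like levels on both sides of the rule, and the libraries differed from each other more than the classes did. *Tcf12*, the E protein HEB, had 152 and 142 CPM against 72.9 and 79.6 CPM, the widest gap among the eligible factors in FL002. *Gata3*, needed throughout early T-cell development, had 107 and 117 CPM against 75.7 and 81.8 CPM. *Ikzf2*, which encodes Helios, had 84.8 and 80.3 CPM against 38.7 and 53.6 CPM. *Ets1* and *Spib* were below the minimum level, with *Ets1* at 42.9 and 47.7 CPM against 16.1 and 22.8 CPM. *Spib*, an Ets factor known from double-negative thymocytes, had 23.3 CPM (17.3 to 30.7) and 12.9 CPM (7.5 to 20.6) against 1.13 CPM (0.308 to 2.89) and 0.171 CPM (0.00433 to 0.954), from 4 and 1 UMIs.

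**Figure D3:**
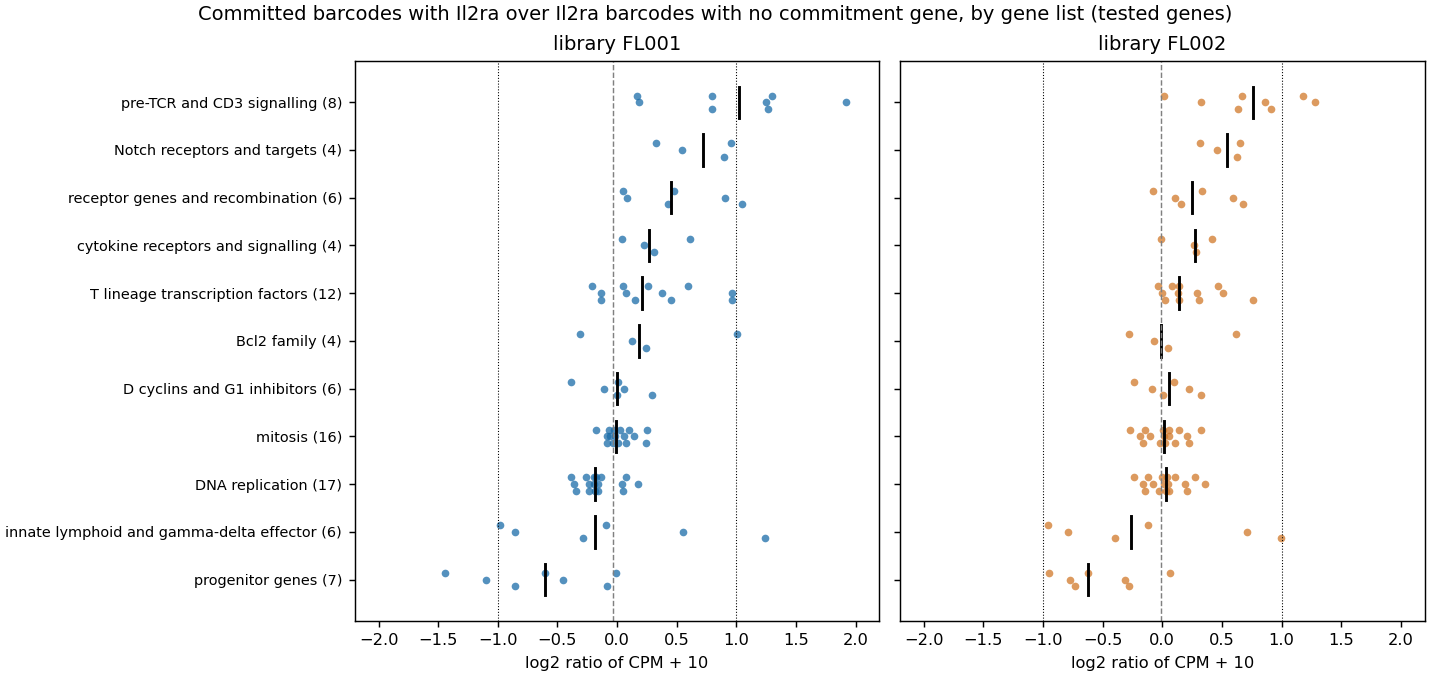
Log2 ratio of CPM + 10 (x axis) in members over *Il2ra* cells without commitment genes, for the genes of 11 lists (y axis, number of eligible genes in brackets) in library FL001 (left) and FL002 (right). Black bars are list medians, dotted lines mark 2-fold and the dashed line is the median of all eligible genes; the CD3 list has medians of 1.02 and 0.76 and the progenitor list -0.61 and -0.63, and over the genes that reached the minimum level in both classes these were 0.80 and 0.67, and -0.34 and -0.46.

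Among 14 cytokine receptor and signalling genes and 16 adhesion genes, 4 and 6 reached the minimum level and 0 passed 2-fold in both libraries, beside 0.903% higher and 0.334% lower of all 2990 genes. Of the 4 cytokine genes 3 were above the comparison cells in both libraries and 0 below. Of the 6 adhesion genes 4 were above and 1 below, beside 31.4% above and 41.1% below of all 2990 genes. *Il2rg*, *Ccr7* and *Itgb1* did not reach the minimum level in both classes, so their directions were in part set by it. Without them, 2 of 3 cytokine genes and 3 of 4 adhesion genes were above and 0 below. Of 2602 genes at the minimum level in both classes, 29.9% were above and 41.7% below. *Itgae* and *Il7r*, higher in members without overlap of the intervals, did not reach that level in both libraries. *Il7r*, the receptor for interleukin 7 on which thymocytes depend, had 52.7 CPM (43.4 to 63.3) in the members of FL001 and 43.2 CPM (32.7 to 56.0) in those of FL002, against 22.3 and 19.3 CPM. *Socs2*, a target of cytokine signalling, had 137 and 168 CPM against 86.1 and 123 CPM. Of the other members of this list of 14 genes, *Il2rb* had 0 UMIs in the members of both libraries, so a chain of the high-affinity interleukin 2 receptor was not detected beside *Il2ra*. *Ccr7*, a homing receptor to the thymus, had 54.5 and 66.7 CPM in members against 19.5 and 29.3 CPM, past 2-fold in FL001 only. *Itgb1*, the β chain of the VCAM-1 receptor, had 46.1 and 53.0 CPM against 65.5 and 71.0 CPM, whereas its partner *Itga4* had 119 and 139 CPM against 132 and 123 CPM.

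*Gzma*, which encodes granzyme A, was among the most abundant genes of the members. It had 8329 CPM (8208 to 8452) in FL001 and 5246 CPM (5124 to 5371) in FL002, against 3513 and 2622 CPM in *Il2ra* cells without commitment genes, with log2 ratios of 1.24 and 1.0. The ratio of FL002 lay just under 2-fold, so the gene was not counted as higher. Free RNA held 3922 and 2141 CPM of *Gzma*, below the members in both libraries. Of the 20 cytotoxic and innate genes in its list, 6 reached the minimum level, 5 of them in both classes. Of these 5, 2 were above the comparison cells in both libraries and 3 below, beside 29.9% and 41.7% of 2602 genes. *Gzmb*, the sixth, passed through the comparison cells. *Gzmb* had 48.5 and 33.3 CPM in members against 95.7 and 65.0 CPM, and *Tyrobp*, an adaptor of innate receptors, had 89.5 and 108 CPM against 186 and 218 CPM. *Nkg7*, a granule gene of cytotoxic cells, had 296 and 283 CPM against 316 and 376 CPM, and *Fcer1g* had 322 and 276 CPM against 393 and 301 CPM. *Id2*, the E protein antagonist used by innate lymphoid cells, had 172 and 190.2 CPM in members against 114 and 112 CPM. Short of the minimum level in FL002, *Cd163l1*, a scavenger receptor gene of γδ T cells, had 50.8 CPM (41.7 to 61.3) and 23.5 CPM (16.0 to 33.3) against 4.80 and 4.79 CPM, and *Rora*, a nuclear receptor of innate lymphoid cells that was short of it in both libraries, had 12.1 and 18.9 CPM against 10.2 and 4.96 CPM. *Il22*, of innate lymphoid effector cells, had 1 UMI in the members of FL001 and 0 in those of FL002.

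Cell cycle genes lay on both sides of the comparison cells. Of 19 mitosis genes, 16 reached the minimum level, of which 6 were above in both libraries and 4 below, with median log2 ratios of -0.01 and 0.02. Of 23 DNA replication genes, 17 reached it, of which 4 were above and 6 below, with medians of -0.18 and 0.03. Over all 2990 genes 31.4% were above and 41.1% below. In these lists 0 genes passed 2-fold in both libraries, beside 0.903% higher and 0.334% lower of all genes. *Top2a*, a topoisomerase of dividing cells, had 293 CPM (270.2 to 316) and 322 CPM (292 to 354) in members against 306 and 309.6 CPM. Among D cyclins, *Ccnd3* had 329 and 327 CPM against 315 and 278 CPM, and *Ccnd2* had 179 and 192 CPM against 238 and 228 CPM. *Bcl2*, the survival factor, had 195 CPM (177 to 214) and 152 CPM (131 to 174) in members against 92.1 and 95.2 CPM, past 2-fold in FL001 only.

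Of 22 progenitor genes, 7 reached the minimum level and 0 passed 2-fold in both libraries, beside 0.334% lower of all 2990 genes, and 2 were lower past 2-fold in FL001 alone. *Nfe2*, *Spi1* and *Bcl11a* did not reach it in both classes of each library, so that their lower levels in members were in part set by the minimum. Of the other 4, 3 were below the comparison cells in both libraries, with median log2 ratios of -0.34 and -0.46, beside 41.7% of 2602 genes at the minimum level in both classes. *Nfe2*, a factor of the megakaryocyte and erythroid program, had 14 CPM (9.43 to 20.0) in the members of FL001 and 25.0 CPM (17.2 to 35.1) in those of FL002, against 55.1 and 57.7 CPM. *Mycn* had 8.85 and 15.2 CPM against 51.1 and 32.5 CPM. *Spi1*, which encodes PU.1 of myeloid and early T cells, had 21.0 and 41.7 CPM against 56.2 and 76.0 CPM. *Hhex* had 55.9 and 63.7 CPM against 109 and 104 CPM, and *Lyl1*, a partner of *Lmo2* in progenitors, had 106 and 94.7 CPM against 167 and 169 CPM. Members were held to at most 1 UMI of *Lmo2* and *Mef2c*, whereas 6.52% and 5.94% of the comparison cells exceeded it. In comparison cells held to that limit, *Nfe2* had 52.4 and 56.0 CPM, *Mycn* 48.4 and 31.1 CPM and *Spi1* 49.6 and 72.5 CPM. The part of the limit in the levels of *Hhex* and *Lyl1* was not tested. *Kit* had 48.0 and 34.9 CPM against 49.4 and 56.3 CPM, and free RNA held 78.3 and 77.4 CPM of this stem cell factor receptor gene, above the members. *Hmga2*, of the fetal program and under the minimum level, had 29.8 and 42.4 CPM against 20.1 and 35.1 CPM, but 5 cells held 50% of its UMIs in the members of FL001 and the intervals overlapped in both libraries. *Igf2bp3*, also of that program, had 85.3 and 94.7 CPM against 85.9 and 89.9 CPM.

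Neutrophil, monocyte, megakaryocyte and erythroid markers were low in members, whereas the sums of mast cell and stromal markers were near those of the comparison cells or above. The 12 neutrophil and monocyte markers summed to 21.9 CPM in the members of FL001 and 25.8 CPM in those of FL002, against 471 and 171 CPM in *Il2ra* cells without commitment genes and 1030.0 and 563 CPM in free RNA. In FL001 the comparison level rested in part on few cells, since 5 of them held 97.9% of the 376 *S100a8* UMIs and 96.2% of the 157 *S100a9* UMIs, and a single cell held 98 of the 523 *Mpo* UMIs. Among them *Mpo* was the most abundant in members, and *Elane* had 0 UMIs. The 12 megakaryocyte and erythroid markers summed to 32.6 and 14.4 CPM against 369 and 38.2 CPM, led by *Itga2b* in members. Dendritic cell markers summed to 10.7 and 10.6 CPM against 12.7 and 12.2 CPM, with *Siglech* at 0. The 9 B cell markers summed to 82.9 and 114 CPM against 41.8 and 67.1 CPM, but without *Ighm* the other 8 summed to 19.1 and 20.5 CPM against 26.6 and 29.1 CPM, and *Cd79a* and *Pax5* were at 0 in members. *Ighm*, the μ heavy chain constant gene, whose unrearranged transcript early lymphoid cells also make, was nevertheless at 63.8 CPM (53.6 to 75.5) and 93.2 CPM (77.5 to 111) against 15.3 and 38.0 CPM. Among mast cell markers *Cpa3* had 125 and 99.3 CPM against 113 and 108 CPM, and 5 and 6 of the 8 genes were at 0, with sums of 127 and 101.5 CPM against 119 and 113 CPM. *Pecam1* led the stromal and endothelial markers, at 37.3 and 41.7 CPM, and their sums were 61.0 and 81.8 CPM against 54.5 and 54.9 CPM.

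Of 5 genes of later thymocyte stages, 0 reached the minimum level. *Cd4*, *Cd8a* and *Cd8b1*, the coreceptors of double-positive cells, had 0 UMIs in the members of both libraries, with upper 95% limits of 1.72 CPM in FL001 and 2.79 CPM in FL002. *Zbtb7b*, a CD4-lineage factor, had 2 and 0 UMIs. *Cd1d1*, an antigen-presenting molecule abundant on later thymocytes, was detected, with 28.9 CPM (22.1 to 37.0) and 26.5 CPM (18.5 to 36.9) in members against 24.6 and 22.6 CPM, and the intervals overlapped. Among genes induced by receptor signalling, *Egr3* and *Nr4a3* had 0 UMIs in both libraries and *Egr1* had 41.9 and 48.5 CPM against 21.2 and 34.6 CPM, with overlapping intervals in FL002. *Nr4a1*, of the same group, had 2.33 and 0.758 CPM against 3.11 and 7.02 CPM.

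Against all other kept cells, 1515 in FL001 and 3811 in FL002, 43 of 3076 genes were higher in members (1.4%) and 26 were lower (0.845%), or 2.24% either way. In FL001 alone 60 were higher (1.95%) and 43 lower (1.4%), and in FL002 alone 48 (1.56%) and 27 (0.878%). The minimum level could again be reached in 1 class only, as by *S100a8*, *Prtn3* and *Cd34*, which were under it in members. This comparison takes in progenitors and myeloid cells. At least 3 UMIs of myeloid, megakaryocyte or erythroid markers were found in 44.2% and 23.0% of the other cells, and 29.6% and 20.8% exceeded the limit on *Lmo2* and *Mef2c*. Without the former, 12 of the 43 higher and 5 of the 26 lower genes remained, and with the other cells held to the same limit on *Lmo2* and *Mef2c* 23 and 8 did. *Gal*, *Cdh1*, *Arpp21*, *Bst1*, *Txk*, *Cd3d*, *Ctla4*, *Atp8a1* and *Nrp1* were leading genes that stayed higher in members under both restrictions.

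*Ctla4*, an inhibitory receptor of T cells, had 137.5 CPM (122 to 154) in the members of FL001 and 183 CPM (161 to 208) in those of FL002, against 34.8 and 54.9 CPM in all other cells. *2300002M23Rik* had 489 and 352 CPM against 132 and 120.3 CPM. *Trdc*, *Gzma*, *Lck*, *Cd3e*, *Cd3g*, *Ccr7* and *Bcl2* were also higher here, and each of them was lost when cells with myeloid or erythroid UMIs were left out. Of the 12 leading lower genes, 5 were neutrophil and monocyte markers, 1 was a megakaryocyte marker, 1 was a progenitor gene and 5 were in no list. *S100a8* had 3.73 and 1.52 CPM in members against 390.4 and 109.7 CPM, and *Prtn3*, a neutrophil protease, had 4.19 and 3.79 CPM against 209.9 and 132.5 CPM. *Cd34*, of stem and progenitor cells, had 8.85 and 12.1 CPM against 107 and 90.2 CPM. *Apoe* had 12.1 and 6.82 CPM against 81.4 and 56.2 CPM, *Tspan32* had 3.26 and 5.30 CPM against 64.4 and 57.9 CPM, and *Rgs18* had 8.39 and 9.09 CPM against 56.5 and 54.2 CPM. These 6 genes were all lost without cells with myeloid or erythroid UMIs, and *S100a8* and *Prtn3* are among the markers that define those cells.

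Cells that met the commitment rule but had no *Il2ra* UMI, 171 in FL001 and 204 in FL002, were the most like members. Of 2954 genes, 0 were higher or lower in members past 2-fold in both libraries (0% each way), and these ratios were not tested. In FL002 alone 1 gene was lower (0.0339%), *Bex1*, with 59.9 CPM against 132 CPM. Of all 2954 genes, 25.49% lay above and 27.25% below in members in both libraries, so a shared side does not by itself set a gene apart. The genes that follow are given as a description. *Crhbp* had 68.5 and 117 CPM in members against 146 and 183 CPM without *Il2ra*, and *Rag1* had 48.0 and 59.1 CPM against 62.6 and 96.3 CPM. *Gal* had 101 and 167 CPM against 129.8 and 230.5 CPM. *Trdc* lay the other way, with 182 and 205 CPM in members against 96.2 and 121 CPM. Median depths were close, 6900 and 4024 UMIs in members and 6936 and 4375.5 UMIs in cells without *Il2ra*, and an undetected *Il2ra* transcript cannot be told apart from an absent one.

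Within *Il2ra* cells at the same limit on *Lmo2* and *Mef2c*, levels were followed from 0 to 1, 2 and at least 3 UMIs of the commitment genes, for 22 genes chosen after their values were seen. The steps held 344, 94, 56 and 217 cells in FL001 and 1045, 261, 116 and 173 in FL002. Their median depths were 9026, 6649.5, 6205 and 7107 UMIs in FL001 and 4532, 3895, 4043 and 3954 UMIs in FL002, so the step at 0 was the deepest in both, and the part of depth was not tested. *Cd3d* was already at 405 CPM (359 to 454) and 419.5 CPM (383 to 458) at 1 UMI, from 171 and 219.5 CPM at 0, and reached 658 and 505 CPM at 3 or more. *Itgae* had 5.18, 32.6, 47.1 and 45.4 CPM in FL001 and 0.562, 7.69, 16.5 and 23.2 CPM in FL002.

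*Rag1* and *Crhbp* were highest at the last step. *Rag1* had 18.3 CPM (7.37 to 37.8) and 31.2 CPM (18.2 to 49.9) at 2 UMIs and 54.4 CPM (44.1 to 66.5) and 78.8 CPM (60.2 to 101) at 3 or more. *Crhbp* had 9.75, 9.94 and 5.24 CPM in the first 3 steps of FL001 and 82.2 CPM (69.4 to 96.7) in the last, and 5.43, 14.5, 23.8 and 182 CPM (153 to 215) in FL002. Because the steps were cut by the same UMIs that chose the members, these levels are given as a description only. For *Crhbp* the 5 richest members held 62.6% of its UMIs in FL001 and 58.4% in FL002, and the intervals do not cover such differences between cells. *Cd48* had 130.1, 108, 73.3 and 21.5 CPM in FL001 and 126, 87.2, 58.7 and 37.4 CPM in FL002, the lowest at the last step in both. *Nfe2* had 52.4, 38.3, 26.2 and 11.3 CPM in FL001 and 56.0, 46.1, 36.7 and 16.8 CPM in FL002. *Tcf7* had 293 CPM (275 to 312), 302, 288 and 249 CPM (227 to 274) in FL001, lower at the last step than at 0 without overlap of the intervals. In FL002 it had 394 CPM (377 to 411), 441, 369 and 385 CPM (342 to 431), and the intervals at 0 and at the last step overlapped.

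**Figure D4:**
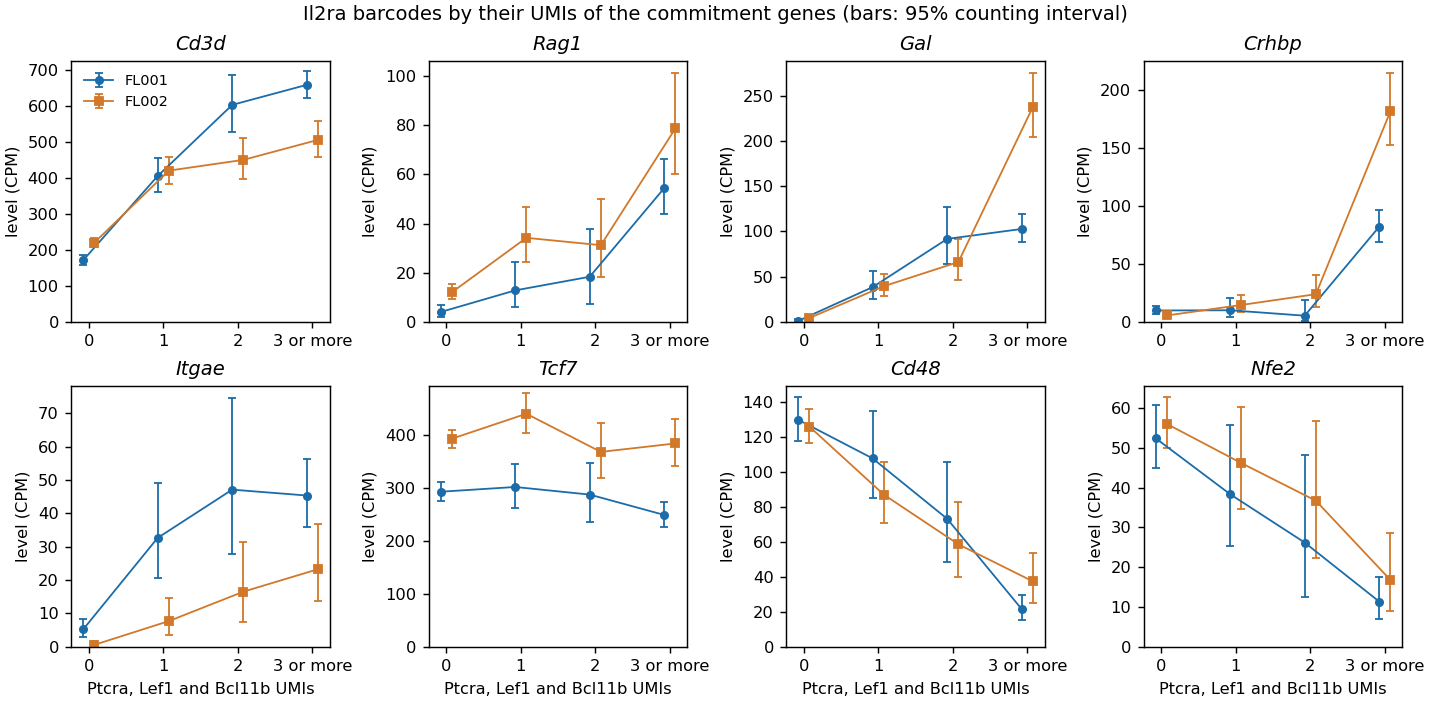
Levels in CPM (y axis, from 0) of 8 genes in *Il2ra* cells with at most 1 UMI of *Lmo2* and *Mef2c*, by their UMIs of *Ptcra*, *Lef1* and *Bcl11b* (x axis), in library FL001 (circles) and FL002 (squares) with 95% exact Poisson intervals. *Cd3d* was raised from 1 UMI onward, *Rag1* and *Crhbp* were highest at 3 or more, and *Cd48* and *Nfe2* were lowest at 3 or more. *Tcf7* was lower at 3 or more than at 0 in FL001, whereas in FL002 these intervals overlapped.

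Members also varied among themselves, as judged by the variance over the mean of UMIs after thinning to 1500, a measure added after the data had been seen. Over 2154 genes the median of this ratio was 1.04 in FL001 and 1.03 in FL002. *Gzma* had 8.19 and 6.83, with a median of 9 UMIs per thinned cell, a highest value of 54 in FL001, a median of 5 and a highest value of 31 in FL002. *Crhbp* had 4.71 and 5.58, with a UMI in 4.40% and 4.84% of thinned members. *Fabp5*, a lipid-binding protein gene, had 7.07 and 3.34, with up to 32 and 11 UMIs, and *H19*, an imprinted fetal transcript, had 2.98 and 2.87. *Xist*, with 2.85 and 2.96, differs by embryo sex.

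Between the libraries, members differed by over 2-fold in 26 of 3249 genes, 10 higher in FL001 (0.308%) and 16 higher in FL002 (0.492%). With a single library on each side this difference has no replicate check. *Scand1* had 12.6 CPM in the members of FL001 and 231 CPM in those of FL002, and *Tgfb1* had 11.2 and 104 CPM. Both were as far apart in all other cells, with *Scand1* at 9.71 and 182.5 CPM and *Tgfb1* at 14.1 and 159.5 CPM, the same direction as in members. *Gstp1*, which shares sequence with *Gstp2* and *Gstp3*, had 101 and 18.9 CPM in members and 66.5 and 15.3 CPM in the other cells. *Fos*, an immediate early gene, had 48.5 and 148 CPM in members and 179.6 and 298 CPM in the others. *Skap1*, an adaptor of T-cell adhesion, had 105 and 30.3 CPM in members and 18.7 and 7.01 CPM in the others. *Prss2* had 141 and 42.4 CPM in members and 56.6 and 40.5 CPM in the others, with log2 ratios of 1.52 and 0.40, and was the gene among the 12 named whose ratio in members most exceeded that in the other cells.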

How the data were processed

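The authors sequenced 2 droplet libraries from 3' ends and made UMI counts per gene and barcode with CellRanger (version not given in the sources used here). The submitters' processing notes name the build mm9, and no coordinates were taken from the files. The deposited counts were summed over each class of cells in a library, scaled to CPM and compared as log2((CPM + 10)/(CPM + 10)) for genes with at least 50 CPM. No test was made, since classes were cut from the cells' own UMIs and a library gives 1 value, and whether the libraries are separate cultures was not stated. Intervals cover counting error only. Members and the 20 gene lists were chosen with earlier results of these data known. Named genes were those of the rule and lists, the 12 leading genes each way, excluding ribosomal genes, and the 6 leading each way between libraries. Other genes were chosen after their values were seen. Python 3.11.15, numpy 2.4.6, scipy 1.17.1, pandas 2.3.3, scanpy 1.11.5 (Scrublet) and matplotlib 3.10.9 were used. The sums and ratios were tested on simulated data. Alternatives covered cell filters, the rule, scaling, added CPM, minimum level, fold, depth, free RNA, doublet scores and each library alone. Some genes of the lists are not reported here.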

Additional observations from a re-analysis of the deposited data

How the results depend on the processing

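With at most 5% mitochondrial UMIs the share of members was 13.2% in FL001, with the rule after thinning 2.80% and 2.07%, and with at least 3 commitment UMIs 12.1% and 4.22%. Against *Il2ra* cells without commitment genes, the 27 higher and 10 lower genes became 9 and 3 with 50 CPM added, 56 and 17 with no minimum level, and 83 and 32 at 1.5-fold. With 1 CPM added 16 genes were lower. Matching on UMIs gave 15 higher genes, and leaving out cells with myeloid or erythroid UMIs, an alternative chosen after seeing the data, gave 16. Against all other cells, the 43 higher and 26 lower genes became 18 and 10 with 50 CPM added, 69 and 63 with no minimum level, 107 and 61 at 1.5-fold, 23 and 10 with *Lmo2* and *Mef2c* held, also chosen after seeing the data, and 12 and 5 without cells with myeloid or erythroid UMIs. The rule after thinning gave 71 higher genes. With a single library, which also sets the minimum level from that library alone, 36 to 64 genes were higher and 10 to 28 lower than in *Il2ra* cells without commitment genes, and 54 to 76 higher and 28 to 53 lower than in all other cells. Of 944 values of named genes over 16 settings, 858 stayed past 2-fold and 3 reversed, all without cells with myeloid or erythroid UMIs: *S100a8* at 0.14, *S100a9* at 0.18 and *Pf4* at 0.005 on the log2 scale. *S100a8*, *S100a9* and *Pf4* are among the markers that define the cells left out there. The cause of the other changes was not tested. The count of 858 was in part fixed in advance, because the leading genes were named for being past 2-fold. A 1.5-fold limit, 1 CPM added, no minimum level or a single library cannot bring such a gene under 2-fold. No paired analysis was possible because both libraries belong to a single group, so there were no groups to pair, and each ratio was taken within a library. The depth of a cell limits which commitment transcripts are detected in it.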

Other observations

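Barcodes of 500 to 1499 UMIs were below the depth set for cells. Of 138 such barcodes in FL001, 5 met the rule on *Ptcra*, *Lef1*, *Bcl11b*, *Il2ra*, *Lmo2* and *Mef2c*, as did 8 of 175 in FL002.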
